A study of Rattus norvegicus with 6 samples.

Results

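The neutrophils of the rat cerebral hemisphere were described from single-cell counts of control rats and of rats poisoned with carbon monoxide. A droplet barcode was taken as a neutrophil when it held at least 500 unique molecular identifiers (UMIs, 1 per captured transcript), at least 10 UMIs of *S100a8* and *S100a9* together that made up at least 1% of its total, at most 1 of the 4 microglial genes *P2ry12*, *Tmem119*, *Gpr34* and *P2ry13*, and at most 1 of the 3 neuronal genes *Tubb3*, *Stmn2* and *Dcx*. The members were thus chosen by their measured *S100a8* and *S100a9* counts and by the low count of microglial and neuronal genes. This took 64 of the 38153 barcodes with at least 500 UMIs, out of 42293 barcodes in all. The negative control group (NC) and the carbon monoxide group (CO) had 3 libraries each of dissociated hemisphere. Exposure in CO was at 1000 ppm during the first 40 minutes and at 3000 ppm during the last 20 minutes, and carboxyhemoglobin exceeded 60%. No strain, age or sex is named in the labels, and nothing else is named that both groups share beyond the tissue and its digestion with trypsin.

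Neutrophils are short-lived granulocytes that mature in the bone marrow and circulate in blood. They carry the calcium-binding proteins S100A8 and S100A9 in their cytosol and ready-made antimicrobial proteins in granules, whose genes are transcribed in succession during maturation. In the healthy brain they are held within the vessels, and they enter the tissue after injury through receptors for chemokines, complement and growth factors.

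Total UMIs per library lay between 39494470 and 47322264, and the median over barcodes with at least 500 UMIs lay between 4808 and 4884 in NC and between 5600 and 5668 in CO. Only 1 barcode sequence recurred over the 15 pairs of libraries, yet the libraries of a group shared cell profiles. Each barcode was compared with all others of its group by the percentage of detected genes they had in common (genes detected in both, over genes detected in either). The most similar barcode shared a median of 79.0% in NC and 79.3% in CO and the next 77.4% and 78.0%, whereas the third shared 26.3% and 28.1%. Barcodes linked at 65% formed sets of 3 (6235 sets in NC and 5607 in CO), of 2 (1870 and 1372) or stood alone (148 and 120), besides 2 larger NC sets of up to 9, and 88.8% and 88.0% of the sets of 3 were spread over more than 1 library. No barcode shared 65% with one of the other group, the highest being 64.9%. How these sets arose was not tested. The 3 libraries of a group are therefore not separate samples, each group counts as 1 sample, no p-value is given, and a set stands for 1 cell profile in what follows.

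**Figure D1:**
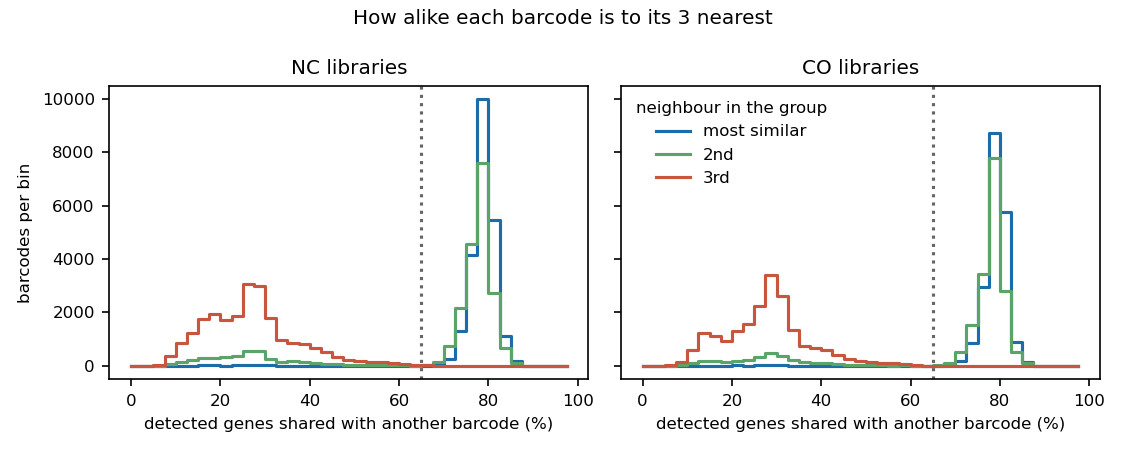
Percentage of detected genes that each barcode shares with its most similar, 2nd and 3rd most similar barcode of the same group (horizontal axis), with barcodes per bin of 2.5% (vertical axis), for the NC libraries (left) and CO libraries (right). The 1st and 2nd neighbours peak near 79% and the 3rd near 28%, on either side of the dotted line at 65% that links barcodes into sets.

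The 61 CO neutrophil barcodes fell into 23 sets, which hold 63 barcodes because set CO-23 includes 2 that missed the rule. Of these sets 18 held 3 barcodes, 4 held 2 and 1 held 1, and 18 of the 23 reached over more than 1 library. The 3 NC barcodes formed a single set. Within a set, pairs of neutrophil barcodes correlated at a median of 0.86 (0.82 to 0.92 over 58 pairs, square root of the share of UMIs, across genes), against 0.49 (0.26 to 0.71 over 1958 pairs) for neutrophils of different sets. Single genes varied within sets beyond what their counts would give: where the other barcodes of a neutrophil set of 3 both had at least 20 UMIs of a gene, the remaining barcode had 0 in 3.08% of 650 cases, and in 2.44% of 54197 cases over 1000 sets drawn from the series. In set CO-13, *S100a9* had 62, 181 and 332 UMIs in barcodes of 2936, 3026 and 3026 UMIs, and *G0s2* had 16, 112 and 0. Values of single barcodes are therefore given only as examples.

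Neutrophils numbered 19, 19 and 23 barcodes in the 3 CO libraries and 2, 1 and 0 in the 3 NC libraries. These were 0.313% (0.188% to 0.488%), 0.332% (0.200% to 0.518%) and 0.380% (0.241% to 0.569%) of the barcodes with at least 500 UMIs in CO. In NC they were 0.0300% (0.00363% to 0.108%), 0.0154% (0.000390% to 0.0858%) and, in the third library, 0 of 7140, which allows a share of up to 0.0420% when 3 counts are taken as the limit of a 0 and 0.0517% as the exact upper limit. The intervals are exact Clopper-Pearson intervals at 95% and cover counting error only. They take near-identical barcodes as separate, although those of the 3 CO libraries came from 13, 14 and 15 sets, so they are too narrow even for that. Counted as sets, neutrophils made up 23 of 6505 profiles in CO, 0.354% (0.224% to 0.530%), and 1 of 7493 in NC, 0.0133% (0.000338% to 0.0743%). The ratio of these shares was 26.5, with an exact interval from counting error of 4.30 to 1091, and it rested on a single NC profile. With 1 sample per group there is no measure of the spread between rats, so these intervals cannot compare the groups.

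The rule itself set the *S100a8* and *S100a9* values, which are given as a description. In the CO neutrophils *S100a9* reached 91975, 96022 and 135675 CPM (a gene's share of all UMIs, scaled to 1000000) in the 3 libraries and *S100a8* 46846, 39148 and 50494. Together they took a median of 11.1% of a barcode's UMIs, with a range from 1.05% to 43.7%. The 5 members with the fewest such UMIs had 13 of 784, 13 of 750, 17 of 697, 23 of 769 and 23 of 2183. The last of these belonged to set CO-23, whose other barcodes, with 16 of 2128 and 16 of 2108, fell just short of 1%. Outside, 6 CO barcodes of 3 sets passed both *S100* limits with 95 to 835 UMIs but had 2 or 3 microglial genes. Another 6 CO barcodes and 1 NC barcode had at least 10 such UMIs at less than 1%, and 25 CO and 6 NC barcodes had 5 to 9.

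**Figure D2:**
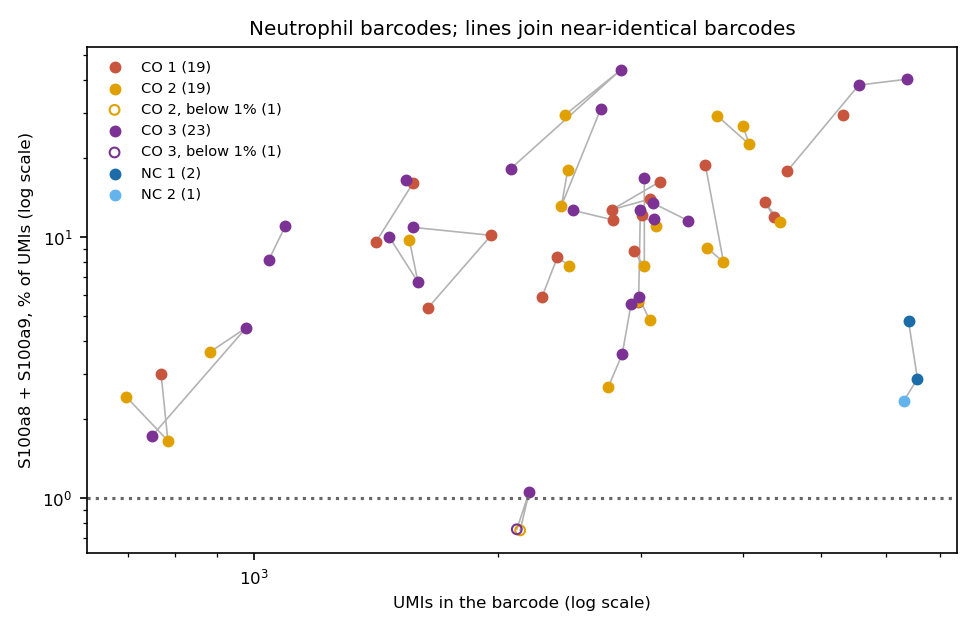
UMIs per barcode (horizontal axis, log scale) against the percentage of them from S100a8 and S100a9 (vertical axis, log scale) for the neutrophil barcodes of each library, with lines joining the barcodes of a set. Open circles are the 2 barcodes of set CO-23 that lie below the 1% limit (dotted line), and the 3 NC barcodes lie together at 6315 to 6563 UMIs, above all but 1 of the CO barcodes.

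Outside the neutrophils, the background of *S100a8* and *S100a9* was low over all barcodes but not in every class. A UMI of either was found in 1.34% of the other CO barcodes and 0.542% of the other NC barcodes. Among CO barcodes of other cell types, 32 of 3683 microglia-type barcodes (0.869%, median 6671 UMIs; at least 3 of the 4 microglial genes detected), 36 of 2430 endothelium-type barcodes (1.48%, median 5863 UMIs) and 0 of 85 T-type barcodes (median 5981 UMIs) had one. The neutrophils held fewer UMIs than these, with medians of 2936, 2969 and 2673 in the 3 CO libraries and 765 genes detected over the group.

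The label was checked against 3 markers that the rule did not use. *Mmp8*, the neutrophil collagenase, was detected in 18 of the 23 CO sets, *Csf3r*, the receptor for granulocyte colony-stimulating factor, in 12, and *Cxcr2*, the receptor for neutrophil-attracting chemokines, in 11. At least 1 of the 3 was present in 57 of 61 CO barcodes, and at least 2 in 39. *Mmp8* was detected in 14 of 19, 15 of 19 and 19 of 23 barcodes of the 3 CO libraries, against 0.0394% of all other CO barcodes. *Csf3r* was also found in 28.1% of microglia-type barcodes, so that it marked the cells less sharply than *Mmp8* (0 of 3683) or *Cxcr2* (0.109%). Sets CO-22 and CO-23, at the foot of the *S100* range, had none of the 3.

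Genes that mark other cell types were then counted in the CO neutrophils. The rule itself kept the 4 microglial genes low, and of the 6 other microglia genes 4 were at 0, *Cx3cr1* among them. Of the 9 macrophage genes in the files, 6 were at 0, including *Mrc1*, *Cd163*, *Lyve1* and *Pf4*. All 12 T or NK cell genes, all 6 B cell genes and all 6 genes of mast cells, basophils and eosinophils were at 0. Of 10 monocyte and dendritic cell genes 6 were at 0, and 191 of the list's 213 UMIs were of *Nr4a1*, also an immediate early gene. Of 9 oligodendrocyte genes 6 were detected, with 91 UMIs together. The 7 astrocyte and ependyma genes had 126 UMIs, 96 of them of *Ttr*. *Ttr*, the transthyretin gene of the choroid plexus, was found in 19 of 23 sets and in 78.4% of all other CO barcodes. *Hba-a1*, a hemoglobin gene, was found in 18 sets and in 64.8% of the other barcodes.

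Several granule genes were higher in the neutrophils than in other myeloid barcodes. The nearest blood-borne myeloid cells are monocytes, but the planned monocyte-type class (611 CO barcodes with *Plac8* and few microglial genes) had *C1qa* in 85.3% and *Cx3cr1* in 56.6% of barcodes and so was largely microglial. A narrower class was defined after seeing this, with *Plac8*, *Csf1r*, *Lyz2* and *S100a4* all detected in a set and at most 1 gene each of the microglial, macrophage, neuronal, endothelial and T cell lists. It held 50 CO barcodes of 18 sets with a median of 9262 UMIs, and its own marker genes are no finding. Over 3258 genes with at least 30 UMIs on both sides together, 548 (16.8%) were at least 2-fold higher in neutrophils and 1421 (43.6%) at least 2-fold lower. Against microglia-type barcodes, 1227 of 11391 genes (10.8%) were at least 2-fold higher and 2761 (24.2%) lower. Against the planned class the counts were 1017 (11.2%) and 2679 (29.5%) of 9072. The median log2 ratio over all genes tested against the narrower class was -0.68, and -0.36 over those with UMIs on both sides. A gene could pass the minimum through 1 class alone. Of the 3258 genes, 490 had UMIs on 1 side only, and for these the filter fixed the direction. With at least 30 UMIs required in neutrophils, 346 genes were higher and 80 lower than in the narrower class. The counts at 30 UMIs on both sides together, and those of the lists below, were taken over all barcodes. With 1 barcode of each set they were 243 and 593 against the narrower class, 1798 lower genes against microglia-type barcodes and 1711 against the planned class. The log2 ratios of single genes below were taken over 1 barcode of each set, scaled with TMM factors, with exact intervals from counting error. They leave out the variation within sets described above, and where the other class had no UMI they are lower limits, with that 0 set to 3 counts. Such limits rise with the counts summed and stood higher over all barcodes, at 8.29 for *Mmp8* and 8.60 for *Pglyrp1*.

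*Mmp8* stood at 2503, 1648 and 1331 CPM in the neutrophils of the 3 CO libraries. The narrower monocytes had none, which puts the log2 ratio at 7.08 or more. *Pglyrp1*, a peptidoglycan recognition protein stored in granules, reached 3289, 1284 and 2134 CPM and was detected in 18 of 23 sets, with a log2 ratio of at least 7.39. *Camp*, the cathelicidin precursor of specific granules, reached 1717, 1054 and 3039 CPM in 12 sets, with a log2 ratio of 7.10 (5.21 to 10.2). Its UMIs were unevenly spread, since set CO-1 alone held 190 of the 327 UMIs. *Retnlg*, a resistin-like gene of rodent granulocytes, reached 2777, 2299 and 1434 CPM in 14 sets and *Stfa2*, a stefin (cysteine protease inhibitor) gene, 2795, 1092 and 1110 CPM in 13, and neither had a UMI in the narrower monocytes. *Mmp9*, the gelatinase gene, was detected in 7 sets.

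Genes of the first granules to form were found in part. Of the 8 azurophil granule genes listed 5 are in the files, and *Elane*, *Ctsg* and *Azu1* were not analysed here. Among the 5, *Mpo* (myeloperoxidase), *Prtn3* (proteinase 3) and *Ms4a3* were at 0, which allows up to 18.1 CPM in these 165499 UMIs. *Ctsc*, the protease that activates the granule serine proteases, had 236 UMIs in 16 sets and *Serpinb1a*, a serine protease inhibitor gene, 24 in 4. Among specific granule genes, *Ltf* (lactoferrin) and *Cybb* were at 0, *Ngp* had 12 UMIs and *Lcn2* (lipocalin 2) 38, each in 2 sets. Of the 9 specific granule genes in the files, 6 could be compared with the narrower monocytes with 4 at least 2-fold higher and 1 (*Cybb*) lower. Of 8 gelatinase granule and secretory vesicle genes 6 could be compared, with 5 higher and 1 (*Fcnb*) lower. In each of these 2 lists, 3 of the 6 had no UMI in 1 of the classes, so the filter fixed their direction. They were *Pglyrp1*, *Lcn2* and *Cybb*, and *Mmp8*, *Mmp9* and *Fcnb*. Over all genes tested the shares were 16.8% higher and 43.6% lower. *Chi3l1* was at about the same level in both classes, with a log2 ratio of 0.21 (-0.30 to 0.71), and *Slpi*, a leukocyte protease inhibitor, was higher by 1.50 (1.16 to 1.83). Of 12 cell cycle genes 7 were at 0, *Top2a*, *Cdk1*, *Birc5* and *Ccnb1* among them, and *Mki67* had 2 UMIs. *Hmgb2*, a chromatin protein gene, had 191 of the list's 242 UMIs in 15 sets, and *Pcna*, the replication clamp, 44 in 9.

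The RefSeq promoter windows of 3 of these genes show what lies before their starts (250 bases before to 50 after, build GRCr8, 5′ to 3′ in the direction of the gene). They are shown because *S100a9* carries the definition of the cells, *Mmp8* is their sharpest marker outside it and *Ifit3* stands for the interferon-stimulated genes described further on. *S100a9* lies at chr2:178490573-178490872 on the minus strand, *Mmp8* at chr8:13008640-13008939 on the plus strand and *Ifit3* at chr1:241527076-241527375 on the plus strand. Capitals mark the C/EBP-type word TTGCNNAA and the interferon response-type word, GAAA followed by any 2 bases and GAAA again, both searched on either strand.
S100a9: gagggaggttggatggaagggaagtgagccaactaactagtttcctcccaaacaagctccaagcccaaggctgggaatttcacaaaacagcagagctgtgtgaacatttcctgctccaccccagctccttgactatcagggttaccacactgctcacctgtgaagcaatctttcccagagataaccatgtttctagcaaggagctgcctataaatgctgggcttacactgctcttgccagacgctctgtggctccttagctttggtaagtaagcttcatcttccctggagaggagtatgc
Mmp8: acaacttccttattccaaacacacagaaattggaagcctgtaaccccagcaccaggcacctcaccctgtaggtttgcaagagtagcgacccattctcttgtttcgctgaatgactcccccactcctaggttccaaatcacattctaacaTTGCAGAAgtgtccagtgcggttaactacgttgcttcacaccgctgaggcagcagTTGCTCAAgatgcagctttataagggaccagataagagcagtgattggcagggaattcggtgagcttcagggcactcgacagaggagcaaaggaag
Ifit3: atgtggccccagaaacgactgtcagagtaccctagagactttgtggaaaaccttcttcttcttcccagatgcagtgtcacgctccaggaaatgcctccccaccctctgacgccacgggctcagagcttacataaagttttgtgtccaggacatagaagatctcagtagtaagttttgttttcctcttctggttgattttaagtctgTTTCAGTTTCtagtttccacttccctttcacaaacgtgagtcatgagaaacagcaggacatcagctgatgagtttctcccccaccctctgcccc
*Mmp8* held the C/EBP-type word at 2 places, with first bases at -101 and -46 from the start. Of all 33469 promoter windows of this length, 10.6% held this word. *Ifit3* held the interferon response-type word once, at -44 on the opposite strand, as 3.92% of all windows did. The *S100a9* window held neither word. The matches did not overlap, and a match is a description of the letters only.

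Among receptors for attractants and growth factors, *Cxcr4*, whose ligand retains granulocytes in the marrow, stood at 639, 843 and 1861 CPM in the 3 CO libraries and was found in 14 sets, with 54 of its 188 UMIs in set CO-17. *Ptafr*, the receptor for platelet-activating factor, stood at 713, 690 and 529 CPM in 15 sets. The log2 ratio of *Cxcr4* to the narrower monocytes was 0.59 (0.14 to 1.02). *Cxcr2* stood at 347, 249 and 410 CPM with a log2 ratio of 5.24 (2.50 to 10.6), or 6.45 over all barcodes, and *Csf3r* at 566, 422 and 341 CPM with 2.48 (1.50 to 3.53). Of the 12 receptor genes in the files, 7 could be compared, 5 were at least 2-fold higher in neutrophils and 0 lower. Of 10 adhesion genes compared, 2 were at least 2-fold higher and 4 lower. Over all genes tested against the narrower monocytes, 16.8% were higher and 43.6% lower, which is near the shares of the adhesion genes. *Prok2*, a secreted attractant, was detected in 12 sets with no UMI in the narrower monocytes (log2 ratio at least 5.56).

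Cytokine transcripts were among the most abundant of the profile, and they came from few genes. *Il1b*, the interleukin-1 beta gene, stood at 9994, 9964 and 11010 CPM in the 3 CO libraries and was detected in 22 of 23 sets. It was higher than in the narrower monocytes by a log2 ratio of 1.72 (1.55 to 1.89) and higher than in microglia-type barcodes by 4.28 (4.15 to 4.40). *Osm*, oncostatin M of the interleukin-6 family, stood at 9409, 10156 and 10225 CPM and was detected in all 61 CO barcodes. It was higher by 4.43 (4.10 to 4.77) than in the monocytes and by 5.25 (5.13 to 5.38) than in microglia-type barcodes. A UMI of *Osm* was found in 18.1% of all other CO barcodes and in 37.7% of microglia-type barcodes, but in 0 of the 85 T-type barcodes. The chemokine *Ccl6* stood at 8076, 9600 and 5087 CPM in 21 sets and was higher than in the monocytes by 3.37 (3.07 to 3.67).

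*Cxcl2*, a ligand of CXCR2, was found in 13 sets at 1918, 4369 and 1314 CPM, higher than in the monocytes by 1.98 (1.55 to 2.42). *Ccl3* was also found in 13 sets, at 1425, 4043 and 1963 CPM, and was lower than in microglia-type barcodes (log2 ratio -0.85, -1.10 to -0.62). *Ccl4* was far lower (-4.91, -5.69 to -4.23). In both *Cxcl2* and *Ccl3* the second CO library was highest. *Tnf*, *Il1a*, *Il10*, *Tgfb1* and *Cxcl1* had no UMI and *Il6* had 3. Of the 18 cytokine genes, 10 could be compared with the narrower monocytes, 6 were at least 2-fold higher and 2 lower. The shares over all genes tested were 16.8% higher and 43.6% lower. The interleukin-1 system was completed by *Il1r2*, the decoy receptor, at 877, 1092 and 1263 CPM (log2 ratio 5.69, 4.41 to 7.35, but 3.96, 3.44 to 4.52, over all barcodes), and by *Il1rn*, the receptor antagonist, in 19 sets at a level like that of the monocytes (0.38, -0.24 to 0.97).

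Receptors of the interleukin-6 family were only partly present. *Osm* apart, *Il6r* had 127 UMIs in 13 sets and *Stat3* 157 in 18, whereas *Il6st* (the shared chain gp130), *Lifr*, *Osmr* and *Clcf1*, the cytokine named in the series' title, were at 0 in all CO neutrophils. A count of 0 in 23 sets allows up to 13.04% of sets with a UMI. Among receptors of alarm and pathogen signals, 6 of 15 were at least 2-fold higher than in the narrower monocytes and 3 lower. Of all genes tested, 16.8% were higher and 43.6% lower. The C-type lectin gene *Clec4d* stood at 1754, 2204 and 1144 CPM in 20 sets (log2 ratio 1.88, 1.46 to 2.31) and *Nlrp3*, an inflammasome sensor, at 1316, 1226 and 751 CPM in 19 (1.48, 1.02 to 1.94).

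**Figure D3:**
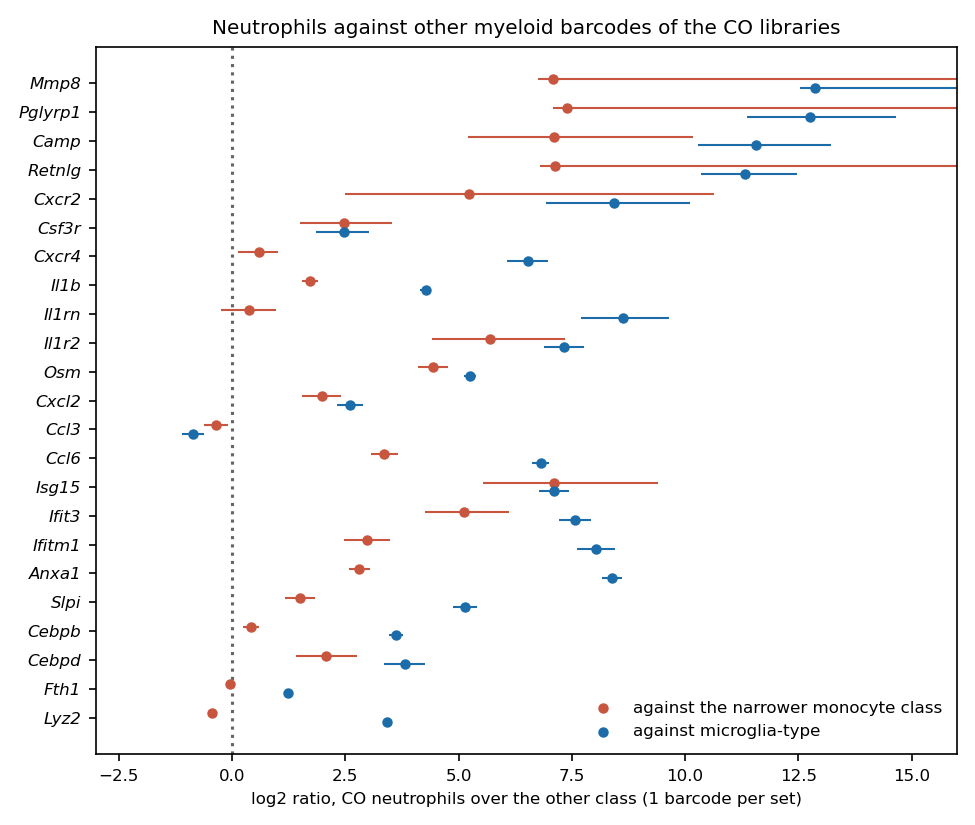
Log2 ratio of the CO neutrophils over the narrower monocyte class (red) and over microglia-type barcodes (blue) of the CO libraries for the genes named on the vertical axis, with 1 barcode of each set and 95% intervals from counting error. Bars that reach the right edge have no upper limit because the other class had 0 UMIs, and the granule genes Mmp8, Pglyrp1, Camp and Retnlg lie above 7 in both comparisons, while Fth1 and Lyz2 lie near or below 0 against the monocytes.

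Of 16 interferon-stimulated genes, 3 were found in at least 12 of the 23 CO sets, 10 in fewer and 3 in none. *Isg15*, a ubiquitin-like modifier, stood at 3143, 2108 and 1639 CPM and was found in 20 of 23 sets. *Ifit3* stood at 2083, 2779 and 1809 CPM in 18 sets and *Ifitm1*, an antiviral membrane protein gene, at 840, 1820 and 1707 CPM in 15. Against the narrower monocytes *Isg15* was higher by 7.11 (5.53 to 9.40), *Ifit3* by 5.12 (4.27 to 6.11; 5.83 over all barcodes) and *Ifitm1* by 2.97 (2.48 to 3.48). *Ifit1bl*, a relative outside the list, had 0 UMIs in those monocytes and was found in 20 neutrophil sets, a log2 ratio of at least 7.58. Of the 16 genes of the list in the files, 11 could be compared and 8 were at least 2-fold higher and 2 lower, with a median of 2.17, beside 16.8% higher, 43.6% lower and a median of -0.68 over all genes tested. Against microglia-type barcodes 11 of 16 were higher and 0 lower, where 10.8% and 24.2% of all genes tested were. Other cells of the CO libraries had these transcripts too: *Isg15* was found in 39.8% of endothelium-type barcodes and *Ifit3* in 36.4%, against 3.88% and 3.15% of microglia-type barcodes. Over the 23 sets, the levels of *Isg15* and *Ifit3* were hardly related in rank (Spearman rho 0.14, a description over profiles that differ in depth).

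Other abundant genes included *G0s2*, an inhibitor of lipolysis, at 27753, 27536 and 18880 CPM in all 23 sets (log2 ratio 2.35, 2.23 to 2.47, against the monocytes, and 3.05 over all barcodes). *Lyz2*, lysozyme, stood at 16444, 21059 and 17275 CPM and was lower than in the monocytes by a little (-0.43, -0.53 to -0.34), but it was used to define those. *Anxa1*, annexin A1, reached 6724, 11114 and 10037 CPM and was detected in 18 sets. Its median over the sets was 2100 CPM and its highest value 37417, so that few sets held the high levels. *Cebpb* and *Cebpd*, transcription factor genes of granulocytes, stood at 6139, 8566 and 4643 and at 694, 728 and 973 CPM. *Alox5ap*, needed for leukotriene synthesis, stood at 2320, 1782 and 1997 CPM in 21 sets, and *Ptgs2*, the inducible cyclooxygenase, was found in 9 sets and in none of the monocytes.

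Genes that digestion and handling of tissue are known to raise were high, and their part in these levels was not tested. The 19 immediate early and dissociation genes in the files took 8.32%, 8.91% and 7.43% of neutrophil UMIs in the 3 CO libraries. *Fos* stood at 19532, 17782 and 12291 CPM and *Junb* at 12424, 16997 and 10328. Of the 18 that could be compared with the narrower monocytes 7 were at least 2-fold higher and 5 lower, beside 16.8% and 43.6% of all genes. Among the lower were the heat shock genes *Hspa1b*, with a log2 ratio of -5.20 (-6.65 to -4.07), and *Hspa8*, with -2.05 (-2.64 to -1.51).

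Genes of the response to low oxygen and to heme were counted against both classes. Of 19 hypoxia and glycolysis genes, 11 could be compared with the narrower monocytes, with 1 at least 2-fold higher and 1 lower and a median log2 ratio of -0.28, where 16.8% and 43.6% of all genes were higher and lower. Against microglia-type barcodes 9 of 18 were higher and 1 lower, with a median of 1.03, where 10.8% and 24.2% of all genes were. The median of all genes there was 0.25, and -0.11 over genes with UMIs on both sides. Of the 18 ratios, 3 are limits with a 0 set to 3 counts, which can raise a ratio to this far larger class. *Hif1a* had 101 UMIs in 12 sets. Of 18 genes of heme, iron and oxidant defence, 14 could be compared, with 3 higher and 7 lower and a median of -0.84. *Hmox1*, the heme oxygenase that releases carbon monoxide from heme, had 0, 1 and 3 UMIs in the 3 CO libraries. *Fth1*, the ferritin heavy chain, stood at 16828, 11478 and 13400 CPM, with a ratio to the monocytes near 0 (-0.04, -0.14 to 0.06).

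The genes with the lowest ratios to the narrower monocytes included the ribosomal protein genes *Rpl5*, *Rpl26* and *Rps18* and, beyond them, *Cd74*, *Crip1*, *Fcnb* and *Fn1*. After this was seen, all ribosomal protein genes were counted together. The 79 in the files made up 1.50%, 1.39% and 1.72% of neutrophil UMIs in the 3 CO libraries, against 20.5%, 16.2% and 11.3% in the narrower monocytes and 6.63%, 6.58% and 6.69% in microglia-type barcodes. All 70 that could be compared were at least 2-fold lower than in the monocytes. The sets did not overlap: the highest neutrophil set had 3.10% and the lowest monocyte set 6.76%, where 43.6% of all genes were at least 2-fold lower between these classes. Neutrophil barcodes were also shallower than the monocytes, with medians of 2829 and 9262 UMIs, and the part of depth was not tested.

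The CO neutrophils differed among themselves in granule transcripts. *Camp*, *Ngp* or *Ltf* was detected in 12 of 23 sets and *Cxcr2* in 11, with both in 8 sets and neither in 8. By barcode the counts were 12, 9 and 9 of 19, 19 and 23 for the granule genes in the 3 CO libraries, and 10, 9 and 9 for *Cxcr2*. The 12 sets with a granule transcript had higher *Pglyrp1* (median 2190 CPM, 236 to 10326) than the 11 without (median 382, 0 to 1404), and *Retnlg* was detected in 11 of the 12 but in 3 of the 11. *Il1b* was lower in the sets with a granule transcript (median 5959 CPM, 0 to 23587) than in those without (11111, 2809 to 38570), and *Cxcl2* was detected in 5 of 12 against 8 of 11. The ranges overlapped in every one of these genes. *Osm* was alike in both (medians 8646 and 8483 CPM). The sets with a granule transcript were deeper, with a median of 3040 UMIs per barcode against 2358 and the part of depth in the split was not tested. When every barcode was thinned to 500 UMIs, the CO barcodes with a granule transcript fell from 30 to 20, those with *Cxcr2* from 28 to 10 and those with both from 22 to 3.

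**Figure D4:**
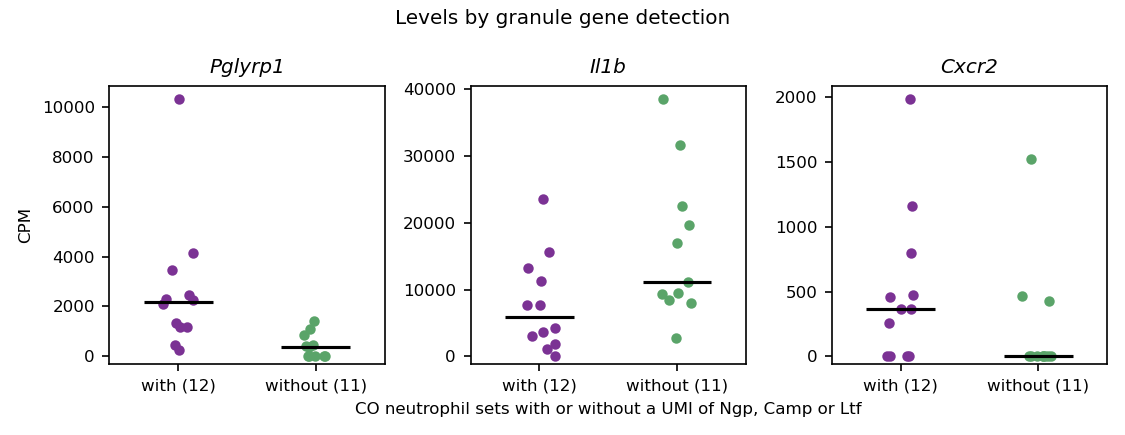
Levels of Pglyrp1, Il1b and Cxcr2 (CPM, vertical axes) in the 23 CO neutrophil sets, split into the 12 with and the 11 without a UMI of Ngp, Camp or Ltf. Points are sets and lines are medians; the medians of Pglyrp1 are 2190 and 382 CPM and those of Il1b 5959 and 11111, with overlapping ranges.

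The levels changed together along the *S100* share. Over the 23 sets, *S100a9* was related in rank to *S100a8* (Spearman rho 0.72) and to *Camp* (0.59), and inversely to *Il1b* (-0.58), while *Camp* was related to *Pglyrp1* (0.77). These are descriptions over profiles that share each library's background and differ in depth, and a larger share for *S100a9* lowers every other share. Set CO-1 stood at the upper end, with 33.4% of its UMIs from *S100a8* and *S100a9*, 82 UMIs of *Mmp8*, 190 of *Camp*, 170 of *Pglyrp1*, 616 of *Anxa1* and none of *Il1b*. Set CO-16, with 8.80%, had 178 UMIs of *Il1b*, 4 of *Pglyrp1* and none of *Camp*. Sets CO-21 and CO-22 were the shallowest, with means of 871 and 750 UMIs, and had no UMI of *Camp*, *Retnlg* or *Pglyrp1*.

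**Figure D5:**
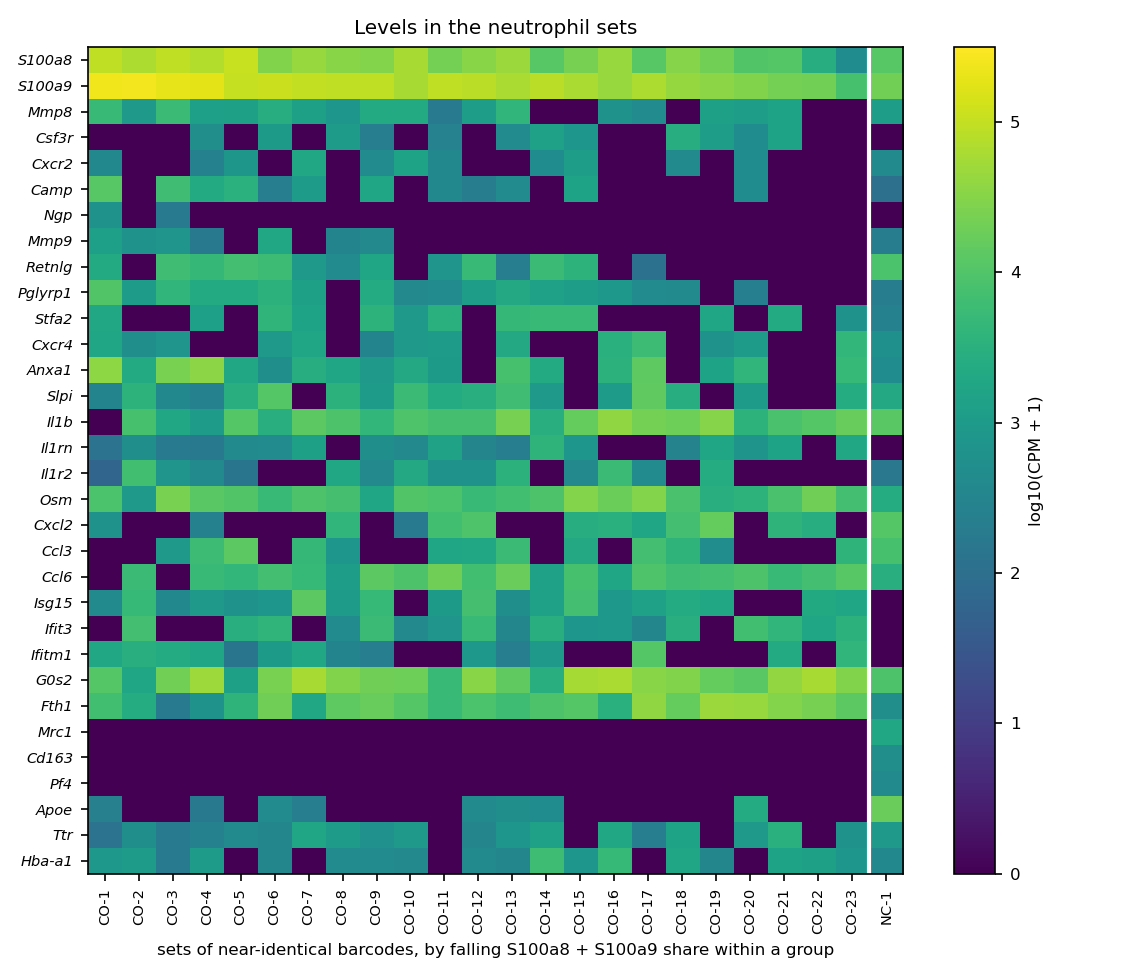
Levels as log10(CPM + 1) of the genes named on the vertical axis in the 23 CO sets and the 1 NC set of neutrophil barcodes, with the CO sets ordered by falling share of S100a8 and S100a9. Granule genes (Camp, Pglyrp1, Retnlg) are filled mainly on the left and Il1b on most of the row except set CO-1, while Mrc1, Cd163 and Pf4 are filled in the NC set alone.

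The single NC set combined neutrophil and macrophage transcripts. Its 3 barcodes had 6400 and 6563 UMIs in the first NC library and 6315 in the second, and 1621, 1636 and 1640 genes. *S100a8* and *S100a9* made up 4.75%, 2.86% and 2.36%. It carried *Mmp8* (6, 10 and 7 UMIs), *Cxcr2* (2, 3 and 3) and *Retnlg* (66, 46 and 53), but no *Csf3r*. It also carried macrophage genes that were at 0 in all CO neutrophils, *Mrc1* (18, 16 and 4 UMIs) and *Cd163* (4, 4 and 2) among them, and 345 UMIs of *Apoe* over the set. The 9 macrophage genes in the files made up 0.539% of its UMIs, against 0.0146%, 0.0115% and 0.0188% in the 3 CO libraries. Whether the set is 1 cell or a mixture was not tested, and Scrublet, a caller of doublets, placed none of the 64 neutrophil barcodes among its highest scores.

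Levels in CO and NC neutrophils are therefore only set side by side. *Isg15*, *Ifit3* and *Ifitm1* had 378, 365 and 241 UMIs in the CO neutrophils and 0 of 19278 UMIs in the NC set. *Il1rn* had 92 against 0. *Oasl*, another gene of the interferon list, had 54 against 66, and the list as a whole took 0.787% of UMIs in CO and 0.353% in the NC set. *Fth1* had 2305 against 10 and *Anxa1* 1536 against 9. *Cxcl2*, *Ccl3* and *Hmox1* had 410, 404 and 4 UMIs in the 165499 of CO and 221, 156 and 25 in the NC set. Of 899 genes with at least 30 UMIs over both, 650 (72.3%) lay 2-fold or more above NC and 69 (7.68%) 2-fold or more below with TMM scaling, against 268 and 162 with scaling by total counts. The median of all genes was 1.77 with the former and 0.45 with the latter, and the share of genes with a ratio above 0 was 84.9% with the former and 66.0% with the latter, so no list is read from it.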

How the data were processed

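Single-cell libraries of the cerebral hemisphere from 3 control and 3 carbon monoxide samples were used as deposited: the authors' matrices give whole UMI counts, not normalized. Cell Ranger and the build Rnor_6.0 are named in the submitters' processing notes, without a version. The members and gene lists were chosen with earlier results of these data known. Barcodes from 500 UMIs were used, with no removal of doublets (Scrublet in scanpy 1.11.5 marked none of the members). Barcodes sharing at least 65% of detected genes within a group were linked into sets. Counts were summed per class, scaled with TMM factors (edgeR 4.0.16) and compared as log2 ratios with exact binomial 95% intervals, over genes with at least 30 counts on both sides together. A count of 0 was set to 3. The intervals were tested on simulated data for the comparison with microglia-type barcodes over 11366 genes: they covered 97.1% of true ratios, and all 200 genes changed 4-fold were called. The simulated counts held counting error only, without TMM factors. They cannot show how the intervals fare with the variation within sets. The changed genes were drawn from those expected to have at least 30 counts in neutrophils, so genes with fewer were not covered by the calling. With 1 sample per group no test was run. Besides the lists, named genes came from the 12 highest and 12 lowest ratios of each comparison whose interval excluded a ratio of 1 and, within CO, whose library values did not overlap between the classes. Alternatives covered scaling, count minimum, thinning to 500 UMIs, member limits, left-out libraries and 1 barcode per set. Promoter windows are RefSeq GRCr8, whereas the counts used Rnor_6.0, so only names join them. Some genes of the lists are not reported here.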

Additional observations from a re-analysis of the deposited data

Results flagged for a closer look

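In CO, 6 barcodes of 3 sets passed both *S100* limits but carried 2 or 3 microglial genes, and no NC barcode did. They had 7568 to 9094 UMIs and 95 to 835 UMIs of *S100a8* and *S100a9*, and they are not among the neutrophils. Another count outside the neutrophils gave 9 CO barcodes of 4 sets with at least 2 of *Mmp8*, *Csf3r* and *Cxcr2*, against 0 in NC. The 2 counts overlap, since barcodes of 9094, 8306, 7568 and 8209 UMIs are in both. The rest of the 9 had 3 to 5 UMIs of *S100a8* and *S100a9* in 13333 to 24102 UMIs. No barcode of either count is among the neutrophils. Of the first 6, 4 had 3 microglial genes, and the microglia-type class of the report holds 5 CO barcodes with at least 10 such *S100* UMIs.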

How the results depend on the processing

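No paired analysis was possible because the results come from no test. With 1 barcode of each set, the neutrophils numbered 23 in CO and 1 in NC, those with *Ngp*, *Camp* or *Ltf* 11, with *Cxcr2* 9 and with both 6. Leaving out each library gave 38 to 42 CO and 1 to 3 NC barcodes, 18 to 21 with a granule gene, 18 to 19 with *Cxcr2* and 14 to 15 with both. At least 2 UMIs left 13 with *Cxcr2* and 9 with both, and thinning to 500 UMIs 10 and 3. Genes at least 2-fold higher in CO than NC (650) were 245 with 1 barcode per set, 105 thinned, 268 by total counts, 320 by totals without *S100a8* and *S100a9* and 422 to 650 without each library. Those lower (69) were 23, 1, 162, 141 and 32 to 69 in the same order, 277 from 10 counts and 24 from 30 counts in neutrophils. *Cxcr2* and *Il1b* turned below 0 there, to -0.29 and -0.23 by total counts and to -0.10 and -0.037 by totals without the rule genes. Genes higher than in monocyte-type barcodes (1017) were 196 thinned and 405 from 30 counts in neutrophils, and those lower (2679) were 1711 with 1 barcode per set, 971 and 75. Against microglia-type barcodes, higher genes (1227) were 553 thinned and 416 from 30 counts in neutrophils, and lower genes (2761) were 1798 with 1 barcode per set, 1378 and 82. Against the narrower monocytes, higher genes (548) were 243 with 1 barcode per set, 85 thinned, 1019 from 10 counts and 346 from 30 counts in neutrophils, and lower genes (1421) were 593, 98 and 80 with 1 barcode per set, thinned and from 30 counts in neutrophils. Fewer counts or genes enter the thinned, 1-barcode and stricter settings. For the other changes the cause was not tested. The settings with 1 barcode per set, the narrower class and 30 counts in neutrophils were chosen after seeing the data. Depth limits what can be said of genes at 0, and the variation within sets is not in the intervals.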
